A study of Arabidopsis thaliana and Arabidopsis lyrata subsp. lyrata with 12 samples.

Results

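A total of 77 of the 32793 annotated A. lyrata genes were raised only after recovery: their transcripts stood above control level 48 h after a heat stress, with a mean level during the stress at or below control. Members were selected on the measured levels themselves, as reads of a gene scaled to the total of its library (counts per 1e6 reads, CPM). Both recovery libraries had to reach 5 CPM, the lowest recovery CPM + 1 had to be at least 1.5 times the highest control CPM + 1, and the mean heat CPM + 1 could not exceed the mean control CPM + 1. The same recovery conditions without the heat condition held for 255 genes, so 178 further genes were raised after recovery with heat above control.

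RNA was sequenced from rosette leaves of plants grown on soil, from the A. lyrata accession MN47 and the A. thaliana accession Col-0, both unmodified, under 3 conditions with 2 libraries each. Controls (mock) were kept at 21 °C by day, heat plants (H6) spent 6 h at 37 °C, and recovered plants (H6R48) spent 6 h at 37 °C and then 48 h back under the mock conditions. The recovered plants were thus collected later than the control and heat plants, and the effect of the heat episode and that of the extra growth cannot be told apart. Nothing in the labels says that the replicates came from separate cultivations, so p-values measure the spread between these libraries only. In leaf tissue, fewer cells of a type and less RNA per cell cannot be told apart either.

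Library totals ranged from 8246880 to 26046839 reads in A. lyrata and from 9624503 to 45254555 reads in A. thaliana. The A. lyrata mock replicate 2 had reads on 28395 genes, against 23142 to 24809 in the other A. lyrata libraries. Without it the rule took 110 genes, 74 of the 77 members among them. The rule uses the highest mock library, so a longer list without a mock library follows in part from the rule. The A. thaliana mock libraries differed more from each other than other replicates did: 2.19% of the genes at 5 CPM or more in both were at least 2-fold apart, against 0 to 0.271% for the other pairs. The 3 leaf identity markers summed to 26900 and 28900 CPM in the A. lyrata mock libraries, 12800 and 14400 CPM in heat, and 27500 and 27800 CPM after recovery. The 5 root markers summed to between 14.5 and 24.8 CPM in all A. lyrata libraries, far under the leaf markers. The leaf markers were thus lower in heat, and their part in the heat results was not tested.

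In plants, a shift to high temperature brings up chaperones within minutes and turns down much of the machinery of growth. When the temperature falls again the chaperone transcripts decay, and leaves resume expansion, repair and the supply of nitrogen and sulfur. Cell expansion needs enzymes that cut and rejoin wall polymers, such as the xyloglucan endotransglucosylase/hydrolases (XTHs). Defence in Brassicaceae leaves rests in part on jasmonate, a hormone made from plastid lipids, and on glucosinolates, sulfur-rich compounds that are toxic to herbivores once hydrolysed. The 77 genes included members of the wall, jasmonate and glucosinolate groups, and no chaperone of the heat response list. Genes above mock in heat were left out by the rule, so that absence follows from the selection.

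**Figure D1:**
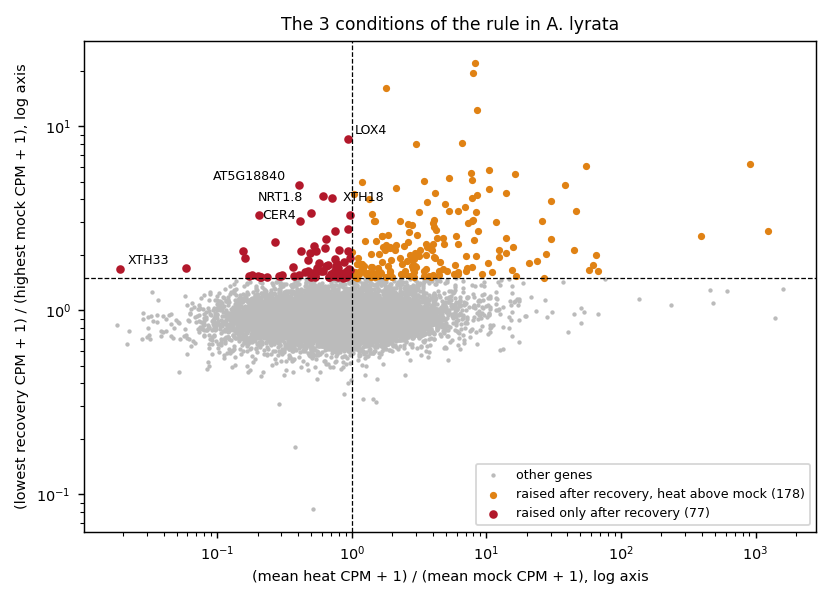
Each point is an A. lyrata gene with both recovery libraries at 5 CPM or more, placed by its heat to mock ratio (x, log axis) and its lowest recovery to highest mock ratio (y, log axis). Dashed lines are the limits of 1 and 1.5, the 77 members (red) lie upper left, and LOX4 is the highest of them at 8.53.

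Among the members the ratio of lowest recovery to highest mock ran from 1.51 to 8.53 with a median of 1.66, and 27 members were at 2-fold or more when group means were compared. Mean recovery levels ran from 5.74 to 258 CPM with a median of 17.2 CPM. Per kilobase of exon, ECS1, a gene linked to bacterial disease responses in A. thaliana, had the highest recovery level at 480 CPM per kb. FRB1, an O-fucosyltransferase-family gene needed for cell adhesion, had the lowest at 2.67 CPM per kb. The heat to mock ratio ran from 0.0191 for XTH33 to 0.975 for AL7G46340, with a median of 0.645. For 27 members the ratio was 0.5 or less, for 33 it was between 0.5 and 0.8, and for 17 it was above 0.8. The median recovery to mock fold in these classes was 1.83, 1.85 and 1.89. The rule cut heat from above and recovery from below, so these spreads and medians are shaped by the selection and are only a description.

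Members near the limits show what the thresholds did. On the ratio of 1.5, AL6G52060 (1.51), the telomere-repeat-binding-like gene TRFL8 (1.51) and AL5G32710 (1.51) were just inside, while NHL3 (1.497), AL4G31610 (1.49) and GT18 (1.47) were just outside. On the level of 5 CPM, AT2G24600 (5.16), FRB1 (5.17) and AL4G29640 (5.21) were inside, and AT4G31000 (4.77), AT3G52900 (4.65) and ASN1 (4.56) were outside. On the heat ratio of 1, AL7G46340 (0.975), NAI1 (0.973) and AT3G15650 (0.971) were inside, and AT5G41750 (1.01), AT4G34150 (1.04) and AL4G41330 (1.05) were outside.

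**Figure D2:**
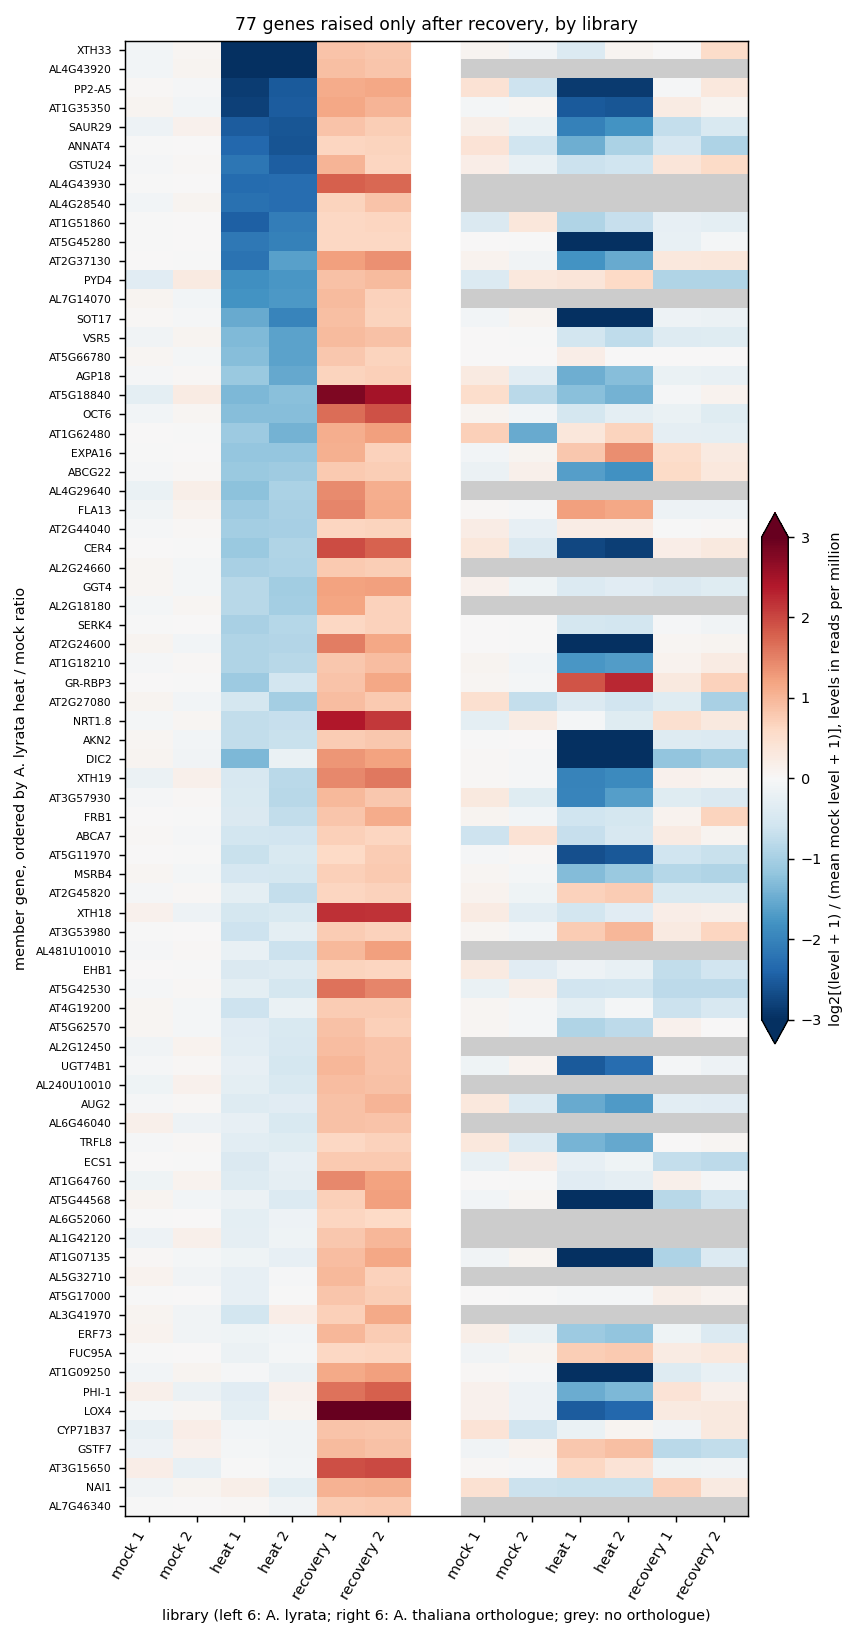
Rows are the 77 members, ordered by the A. lyrata heat to mock ratio, and columns are libraries, with the 6 A. lyrata libraries on the left and the 6 A. thaliana libraries of the orthologue on the right. Colour is log2 of (level + 1) over (mean mock level + 1), cut at 3 in either direction, and grey marks the 16 members with no orthologue. Both A. lyrata recovery columns are red for every row, and the A. thaliana recovery columns are pale or blue for many.

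As a description of the selected contrast, all 77 members were called higher in recovery than in mock by edgeR's quasi-likelihood test (Benjamini-Hochberg adjusted p under 0.05), where 7.65% of the 20779 genes tested were called higher. Against heat, all 77 were also called higher, where 39.1% of all genes were. In heat against mock, 43 members were called lower and 1 higher, beside 38.7% and 37.9% of all genes. The 1 called higher was AL7G46340, with 59.05 and 60.87 CPM in mock and 60.99 and 55.94 in heat by library totals, but a log2 fold change of 0.18 ± 0.08 with TMM scaling (edgeR adjusted p = 0.0444). These counts follow from the selection, and nothing is read from them. The heat contrast also moves with the scaling. Trimmed-mean (TMM) scaling, which edgeR uses to correct for composition, raised heat against mock by 0.237 on the log2 scale over library totals at the median gene. With TMM-scaled CPM the rule kept 60 of the 77 members, and 15 of the 17 that it lost had a heat ratio above 1. LOX4, PHI-1, NAI1, GSTF7, ERF73 and FUC95A were among those 15, so for these the side of mock on which heat lay depended on the scaling.

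The leading member was LOX4 (AL2G30640, scaffold 2, 15465392 to 15469599, plus strand, 6 exons), a 13-lipoxygenase of plastids that catalyses an early step of jasmonate synthesis. Its CPM was 5.61 and 6.19 in mock, 4.61 and 6.33 in heat, and 60.3 and 61.1 after recovery. Mock and heat overlapped, and both recovery libraries lay far above them, 8.95-fold over mock by group means. Its log2 fold change in recovery was 3.38 ± 0.13 (SE), and in heat 0.21 ± 0.17 (edgeR adjusted p = 0.275). In A. thaliana the orthologue showed TMM-scaled CPM of 11.5 and 9.29 in mock, 1.02 and 1.22 in heat, and 12.7 and 12.9 after recovery. There the heat libraries were the low ones (log2 fold change -3.14 ± 0.22, edgeR adjusted p = 8.3e-06), and the recovery value of 0.31 had a 95% interval from -0.08 to 0.70.

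The rule itself required heat at or below mock, and most of the jasmonate pathway in A. lyrata was above it. Of 33 jasmonate genes tested, 29 were called higher in heat and 2 lower, with a median log2 fold change of 2.29 beside -0.01 for all genes. After recovery 21 were called higher and 2 lower (beside 7.65% and 4.73% of all genes), with a median of 1.68. LOX3, the lipoxygenase gene most like LOX4 and picked out here after its values were seen, had 3.78 and 3.51 CPM in mock, 28.1 and 31.4 in heat, and 39.7 and 37.6 after recovery. LOX3 was therefore already high in heat, a pattern that the rule excludes for LOX4 and every other member, so the contrast between these genes restates the selection. The jasmonate repressor JAZ8 led the list among genes with a read in mock, at 0 and 0.0764 CPM in mock, 8.61 and 7.18 in heat, and 13 and 12.2 after recovery. The jasmonate-catabolic gene CYP94B1 had no reads in either mock library, 1.09 and 1.69 CPM in heat, and 2.68 and 3.81 after recovery. In A. thaliana 8 of 33 jasmonate genes were called higher and 17 lower in heat, beside 34.9% and 39.5% of all genes. After recovery 1 was called higher and 1 lower there, beside 1.34% and 0.766%.

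**Figure D3:**
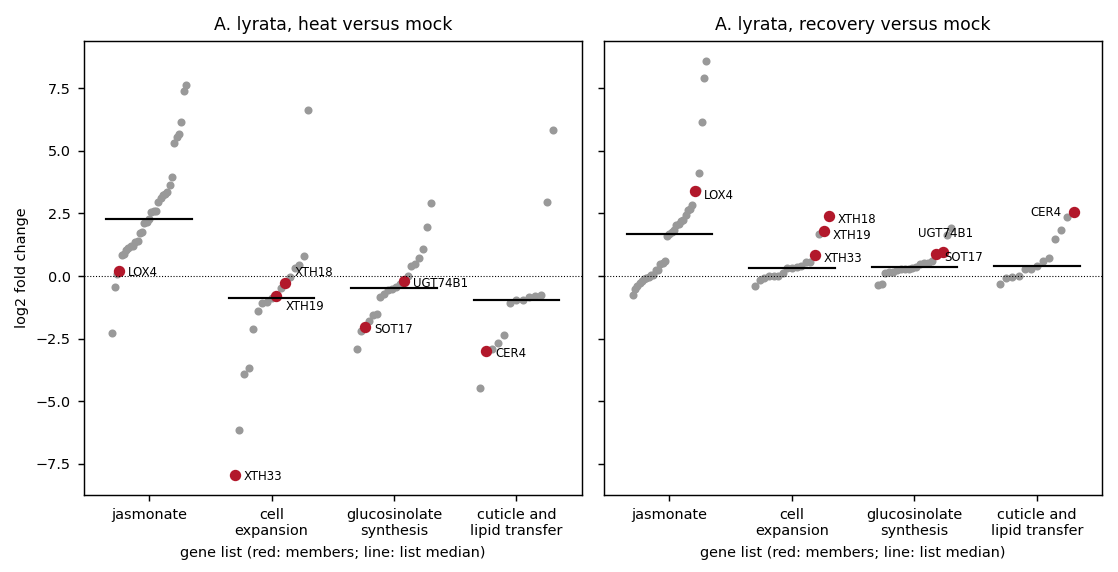
Each point is an A. lyrata gene of 4 lists, placed by its edgeR log2 fold change in heat (left) or recovery (right) against mock, with members in red and the list median as a line. LOX4 lies near 0 in heat while the jasmonate median is 2.29, and XTH33 is the lowest expansion gene in heat at -7.94.

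Wall and growth genes made up 13 members. The largest rise was that of XTH18 (AL7G21480), with 7.45 and 5.96 CPM in mock, 4.37 and 4.65 in heat, and 34.4 and 33.6 after recovery. Its neighbour XTH19 (AL7G21470) had 2.91 and 3.90 CPM in mock, 2.18 and 1.497 in heat, and 10.9 and 12.3 after recovery. In both genes the heat libraries were the lowest and the recovery libraries the highest, with no overlap between conditions, and their log2 fold changes in recovery were 2.39 ± 0.13 and 1.79 ± 0.19. In heat edgeR called XTH19 lower (log2 fold change -0.80 ± 0.26, adjusted p = 0.0110) but not XTH18 (-0.29 ± 0.17, adjusted p = 0.125). XTH19 starts at position 4816885 and XTH18 at 4819835 of scaffold 7, both on the plus strand and 1718 bp apart. The next gene, XTH24 (AL7G21490), lies 5719 bp further on. It had 35.7 and 43.3 CPM in mock, 33.6 and 32.0 in heat, and 61.4 and 53.9 after recovery, and its ratio of 1.24 kept it out of the rule although edgeR called it higher (log2 fold change 0.55 ± 0.10, adjusted p = 0.0009). XTH24 and the wall-loosening expansin EXPA11 (log2 fold change 0.56 ± 0.14, edgeR adjusted p = 0.0161) had the largest log2 fold changes among the other cell expansion genes called higher.

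XTH33, whose product stays anchored at the cell surface, showed the deepest fall in heat of any member: 66.9 and 73.8 CPM in mock, 0.606 and 0.115 in heat, and 127 and 124 after recovery. In A. thaliana its orthologue was too low to be tested, at 0.448 to 0.603 TMM-scaled CPM in mock. SAUR29, of an auxin-responsive gene family, went the same way, with 4.75 and 5.96 CPM in mock, 0.121 and 0.0768 in heat, and 10.4 and 9.67 after recovery. AT5G45280, a pectin acetylesterase of the wall matrix, was the most abundant wall member per exon length, at 96.9 CPM per kb in mock, 22.3 in heat and 149 after recovery. PHI-1, a phosphate-induced gene of the EXORDIUM family, had 3.67 and 2.75 CPM in mock, 2.3 and 3.57 in heat, and 11.9 and 13.5 after recovery. Its mock and heat libraries overlapped, so the wall members ranged from a heat ratio of 0.0191 to 0.935. The remaining wall members included the expansin EXPA16, the arabinogalactan proteins AGP18 and FLA13, the xyloglucan fucosidase FUC95A, the peroxidase AT2G37130, the glycosyl hydrolase AT1G64760 and FRB1, at 1.56- to 2.51-fold over mock in recovery.

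Of the 17 cell expansion genes tested in A. lyrata, 8 were called higher and 1 lower after recovery, beside 7.65% and 4.73% of all genes, with a median log2 fold change of 0.33. The 8 include the 3 members, which were chosen on the same contrast. The count fell to 5 without either mock replicate and with DESeq2, and to 4 without recovery replicate 2. In heat 11 were called lower and 3 higher, beside 38.7% and 37.9%. In A. thaliana 1 of 19 was called higher and 1 lower after recovery, beside 1.34% and 0.766%. There 8 were called lower in heat, a share near the 39.5% of all genes, and 3 higher, beside 34.9%.

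Members of sulfur metabolism covered adjoining steps of glucosinolate assembly. UGT74B1 adds the glucose of the core structure, SOT17 adds the sulfate that completes an aliphatic glucosinolate, and AKN2 is an adenylylsulfate kinase that makes the sulfate donor. UGT74B1 (AL1G37110) had 25.7 and 27.4 CPM in mock, 22.2 and 18.1 in heat, and 54.0 and 48.5 after recovery. SOT17 (AL1G30620) had 9.72 and 9.24 CPM in mock, 2.67 and 1.65 in heat, and 18.6 and 15.8 after recovery. AKN2 (AL7G12130) had 90.2 and 81.9 CPM in mock, 51.0 and 53.8 in heat, and 148 and 151 after recovery. All 3 were lowest in heat and highest after recovery with no overlap, at 1.90-, 1.73- and 1.73-fold over mock in recovery, and SOT17 no longer passed with DESeq2 (adjusted p = 0.0512). In heat edgeR called SOT17 and AKN2 lower, but not UGT74B1 (log2 fold change -0.21 ± 0.11, edgeR adjusted p = 0.0837).

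Most of the glucosinolate list was higher with them. Of 20 genes tested in A. lyrata, 13 were called higher and 1 lower after recovery, beside 7.65% and 4.73% of all genes, with a median log2 fold change of 0.35. In heat 12 were called lower and 5 higher, beside 38.7% and 37.9%. The count of 13 includes UGT74B1 and SOT17 and fell to 8 with DESeq2, without mock replicate 1 and without recovery replicate 1. The indolic-branch cytochromes P450 CYP79B3 and CYP79B2 led the rest of the list, with log2 fold changes of 1.92 ± 0.17 and 1.62 ± 0.24 (edgeR adjusted p = 6.0e-07 and 0.000268). They were not members, since both were also higher in heat. In A. thaliana 21 of 22 glucosinolate genes were called lower in heat, beside 39.5% of all genes. After recovery edgeR and DESeq2 called none in either direction, with 1 at an unadjusted p under 0.05 and a median log2 fold change of -0.12. Of all A. thaliana genes edgeR called 1.34% higher and 0.766% lower there. No call in 22 is close to that background, so it is not a result about these genes.

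Further members conjugate, degrade or protect thiols and other small molecules. GGT4, a vacuolar transpeptidase that breaks down glutathione conjugates, had 17.1 and 15.7 CPM in mock, 8.73 and 7.45 in heat, and 39.3 and 39.5 after recovery. GSTF7, a phi-class glutathione transferase of defence responses, had 7.56 and 9.39 CPM in mock, 8.12 and 7.87 in heat, and 17.4 and 16.5 after recovery. Heat fell below mock for GGT4 and overlapped it for GSTF7. GSTU24, a tau-class transferase, was at 2.18 and 1.57 CPM in heat against 12.8 and 13.6 in mock and 27.6 and 21.3 after recovery. MSRB4, which repairs oxidised methionine, and the cytochrome P450 CYP71B37 rounded off this group of 8, which spanned 1.68- to 2.33-fold over mock.

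Transporters formed a group of 8. AT5G18840, a sugar-transporter-like protein of the major facilitator superfamily, had 2.59 and 4.2 CPM in mock, 0.728 and 0.845 in heat, and 29.5 and 23.8 after recovery, which is 6.30-fold over mock by means. NRT1.8, which takes nitrate back out of the xylem, had 0.972 and 1.15 CPM in mock, 0.243 and 0.269 in heat, and 9.94 and 8.00 after recovery. Both genes stayed under 5 CPM in every mock and heat library. OCT6, an organic cation/carnitine transporter, had 1.3 and 1.53 CPM in mock, no read in either heat library, and 6.76 and 8.00 CPM after recovery. DIC2, a mitochondrial dicarboxylate carrier, had 3.02 and 2.52 CPM in mock, 0.485 and 2.3 in heat, and 8.45 and 7.72 after recovery. Its heat libraries lay far apart, and its call in recovery was lost without mock replicate 2 (edgeR adjusted p = 0.0543). AT1G35350, of the family of the phosphate exporter PHO1, was more abundant, at 49.1 and 43.6 CPM in mock, 5.82 and 7.41 in heat, and 105 and 95.6 after recovery. The vacuolar sorting receptor VSR5 and the ABC transporters ABCG22, a stomatal-regulation gene, and ABCA7 completed the group.

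The cuticle gene CER4, an acyl-CoA reductase that makes the primary alcohols of leaf wax, had 1.19 and 1.15 CPM in mock, 0 and 0.154 in heat, and 7.35 and 6.37 after recovery. The 3 conditions did not overlap, and recovery was 3.63-fold over mock. Of 13 cuticle and lipid transfer genes tested, 9 were called higher and 1 lower after recovery, beside 7.65% and 4.73% of all genes, with a median log2 fold change of 0.41. The 9 include CER4, which was chosen on the same contrast. In heat 10 were called lower and 2 higher, beside 38.7% and 37.9%. The wax ester synthase WSD1 and the lipid transfer protein LTP3 had the largest log2 fold changes of the remainder, at 2.37 ± 0.55 and 1.83 ± 0.44 (edgeR adjusted p = 0.00881 and 0.00996). The count of 9 fell to between 3 and 5 without either mock replicate or either recovery replicate, and to 4 with DESeq2. In A. thaliana edgeR called none of 15 in either direction after recovery, with 4 at an unadjusted p under 0.05, and DESeq2 called 2. Of all A. thaliana genes edgeR called 1.34% higher and 0.766% lower there, so no call in 15 is close to the background. The shares of all genes at an unadjusted p and with DESeq2 were not computed.

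Defence and signalling members numbered 11 with LOX4. ECS1 was the most abundant member of all, at 150 and 149 CPM in mock, 110 and 125 in heat, and 257 and 259 after recovery. PP2-A5, a phloem lectin-like protein with a role in defence against mites, had 6.48 and 6.03 CPM in mock, 0 and 0.269 in heat, and 14.6 and 15.3 after recovery. NAI1, a bHLH factor needed to form ER bodies, had 3.02 and 3.59 CPM in mock, 3.88 and 2.5 in heat, and 7.85 and 8.04 after recovery. The co-receptor kinase SERK4, the hypoxia-linked factor ERF73, the calmodulin-binding-like AT5G62570, the remorin AT2G45820, the ankyrin protein AT2G24600, the receptor kinase AT1G51860 and the LEA-hydroxyproline protein AT2G27080 were also here, at 1.56- to 2.56-fold. Another 4 members bind calcium or membranes, namely AT1G62480, AT1G18210, ANNAT4 and EHB1, and they ran from 1.57- to 2.23-fold. Members outside these groups included AT5G42530, of unknown function, at 27.3 and 28.4 CPM in mock, 22.7 and 19.0 in heat, and 88.6 and 78.6 after recovery. The bHLH gene AT1G09250, the glycine-rich AT1G07135, the proline-rich AT4G19200, the augmin subunit AUG2 and the organellar RNA-editing protein GR-RBP3 also fell outside them. AT3G15650, an alpha/beta-hydrolase, had 3.24 and 2.14 CPM in mock, 2.67 and 2.5 in heat, and 13 and 13.6 after recovery.

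No member came from 21 of the 25 gene lists examined. Members were 0.235% of all genes, so a list without one is not a result. The heat condition of the rule also kept out genes raised by heat. Among the 21 was the heat response list. Of it, 13 of 13 tested genes were called higher in heat and 9 after recovery, beside 37.9% and 7.65% of all genes. Mitosis and cytokinesis was another. There 24 of 27 genes were called lower in heat, beside 38.7% of all genes. After recovery edgeR and DESeq2 called none of the 27 in either direction, with 1 at an unadjusted p under 0.05. Of all A. lyrata genes edgeR called 7.65% higher and 4.73% lower there.

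**Figure D4:**
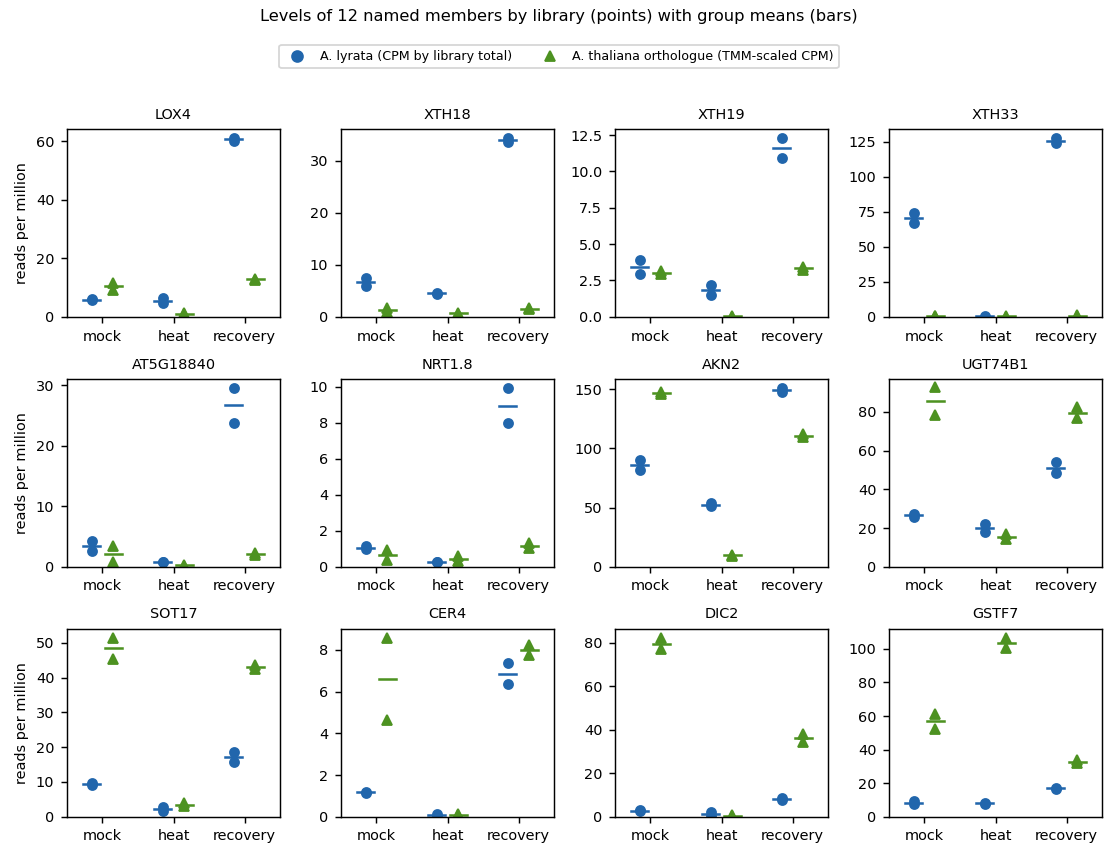
Points are single libraries and bars are means of 2 libraries for 12 members, in CPM on a linear axis from 0, with A. lyrata in blue and the A. thaliana orthologue in green on its own scaling. The A. lyrata recovery points lie above all other A. lyrata points in each panel, while the A. thaliana recovery points lie at or below mock for AKN2, DIC2 and GSTF7.

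The A. thaliana libraries had no part in the selection, so the orthologues allow a test. An orthologue was annotated for 61 members, each with 1 A. lyrata gene, and 59 passed the filter on low counts. None of the 59 was called higher in recovery against mock by edgeR, beside 1.34% of the 18536 genes tested, and 4 were called lower, beside 0.766%. A count of 0 in 59 is close to that background of higher calls, so it is not a result about the orthologues. At an unadjusted p under 0.05 there were 5 higher and 15 lower, and DESeq2 called 0 higher and 6 lower. The shares of all genes at that unadjusted p and with DESeq2 were not computed, so these counts are not read as a result. The median log2 fold change over the 59 was -0.15, beside -0.00 for all genes. For 38 of the 59 the upper end of the 95% interval lay below 0.585, the log2 value of a 1.5-fold rise. The share of all genes below that value was not computed, so the 38 is not read as a trait of the orthologues. For 50 the upper end lay below the A. lyrata estimate of the same gene. Those estimates chose the genes and were taken without their own spread, so nothing is read from the 50. The intervals were wide for low orthologues such as NRT1.8 (0.73, from -0.48 to 1.93) and AT5G18840 (0.14, from -1.32 to 1.60), where a rise could not be detected or dismissed at this precision.

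The 4 orthologues called lower were DIC2, MSRB4, GSTF7 and AT5G42530. DIC2 had TMM-scaled CPM of 82.1 and 77 in mock and 34.5 and 38.2 after recovery (log2 fold change -1.13 ± 0.15, edgeR adjusted p = 0.028). GSTF7 had 52.5 and 61.2 in mock and 31.9 and 33.9 after recovery (-0.79 ± 0.12, edgeR adjusted p = 0.032). AT5G42530 had 679 and 883 in mock and 455 and 453 after recovery (-0.78 ± 0.15, edgeR adjusted p = 0.047). MSRB4 had 6.81 and 6.15 in mock and 3.11 and 3.02 after recovery (-1.07 ± 0.21, edgeR adjusted p = 0.049). In each the recovery libraries lay below both mock libraries, while the A. lyrata gene had been selected for the opposite order. Both recovery libraries were below both mock libraries for 24 orthologues and above for 16, beside 25.9% and 26.7% of all genes tested.

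The A. thaliana counts depended on single libraries. Without mock replicate 1, 12 orthologues were called higher and 16 lower, beside 15.7% and 14.6% of all genes. Without mock replicate 2, 5 were called higher and 21 lower, beside 16.7% and 18.4%. Calls made in both analyses included GR-RBP3 as higher and DIC2, GSTF7, MSRB4, AT5G42530, ECS1, GGT4 and AKN2 as lower. Both analyses used the same recovery libraries, and the share of all genes called in both was not computed. Without either heat or either recovery library, or with only mock and recovery fitted, edgeR called no orthologue in either direction, with 12 to 17 at an unadjusted p under 0.05. AT1G62480 changed sign with the mock library used, since its mock levels were 344 and 72.2 TMM-scaled CPM.

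**Figure D5:**
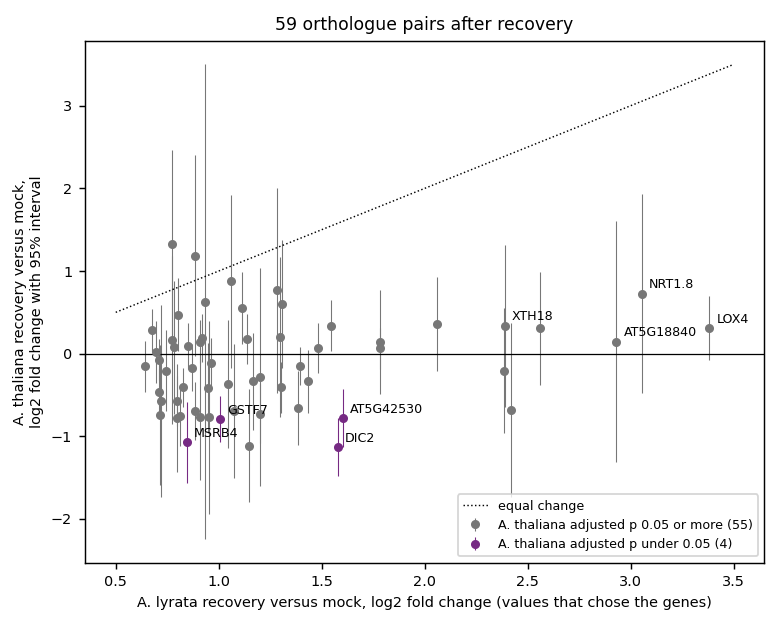
Each of 59 orthologue pairs is placed by its A. lyrata recovery log2 fold change (x, which chose the genes) and its A. thaliana recovery log2 fold change with a 95% interval (y). LOX4, at 3.38 in A. lyrata and 0.31 in A. thaliana, lies furthest right, the 4 purple points were called lower in A. thaliana, and the dotted line marks equal change.

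In heat, falls were more frequent among the orthologues than among all A. thaliana genes. The rule had required heat at or below mock in A. lyrata, so genes raised by heat in both species were left out beforehand. The excess of falls is therefore not read as a result about the orthologues. Of the 59, 36 were called lower and 8 higher, beside 39.5% and 34.9% of all genes, and the median log2 fold change was -1.45 beside -0.12. With library totals in place of TMM, which shifted the median gene by -0.751, 47 were lower and 4 higher. The shares of all genes called with that scaling were not computed, so these counts have no background beside them. From heat to recovery 33 were called higher and 10 lower, beside 39.2% and 34.1% of all genes. The deepest falls in heat were those of PP2-A5 (no read in either heat library), DIC2 (log2 fold change -8.15 ± 0.27, edgeR adjusted p = 5.1e-07) and AT1G07135 (-7.36 ± 0.33, 1.3e-06). The glucosinolate-related members fell as well, by 2.44 for UGT74B1, by 3.75 for SOT17 and by 3.88 for AKN2 on the log2 scale, with recovery values of -0.11, -0.17 and -0.41. None of these 3 recovery values passed the test (edgeR adjusted p = 0.658, 0.449 and 0.0793). The 8 called higher in heat were GR-RBP3, EXPA16, AT3G53980, FLA13, GSTF7, AT3G15650, FUC95A and AT2G45820.

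The 178 genes raised after recovery with heat above mock served as a comparison. Of their orthologues, 139 were tested in A. thaliana, 3 were called higher and 5 lower after recovery, beside 1.34% and 0.766% of all genes, and the median log2 fold change was -0.05. The difference between the 2 sets was not tested.

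Position and structure were not used by the rule. Of the 77 members, 74 lay on the 8 large scaffolds, with 5 to 14 on each, and 3 on small ones. Only 2 pairs lay within 5 genes of each other: XTH19 with XTH18, and AL4G43920 with AL4G43930, which are 53 bp apart on scaffold 4 (AL4G43930 from 22536809 to 22537949, plus strand) and have no annotated orthologue. AL4G43930 had 17.6 and 17.9 CPM in mock, 2.79 and 2.88 in heat, and 64.5 and 61.4 after recovery, the largest ratio among members with no orthologue, ahead of AL481U10010 and AL4G29640. AL4G43920 had 24.1 and 26.7 CPM in mock, 0.728 and 0.384 in heat, and 48.2 and 46.3 after recovery, so both genes fell in heat and exceeded mock later. AL240U10010 and AL2G12450 had equal counts in 5 of 6 libraries and the same exon length of 1029 bp. They may be copies of 1 locus in the annotation, which would leave 76 distinct members, and their separate levels are uncertain. No member overlapped another gene model, beside 1.52% of the 14721 genes that met the recovery level.

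Members had shorter and simpler models than those 14721 genes. The median exon length was 1220 bp against 1610 bp, the median number of exons 3 against 6, and 16.9% against 9.52% had a single exon. The 178 comparison genes, raised after recovery with mean heat above mock by any amount, had a median of 1260 bp and 2 exons, so their models were short too. Over all genes in the annotation the medians were 1370 bp and 4 exons, and 17.2% had a single exon. An orthologue was annotated for 79.2% of the members, 83.1% of the comparison genes and 87.5% of the genes at the recovery level.

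Promoters of A. lyrata were not analysed here. The 300 bases before the annotated start of the A. thaliana orthologue (RefSeq, TAIR10.1) are shown for LOX4, the member with the largest rise, for the neighbours XTH18 and XTH19, which moved together in A. lyrata, and for UGT74B1. Sequences run 5′ to 3′ on the strand of the gene, and capitals mark every match to the motifs searched.
LOX4, chr1:27308213-27308512, plus strand: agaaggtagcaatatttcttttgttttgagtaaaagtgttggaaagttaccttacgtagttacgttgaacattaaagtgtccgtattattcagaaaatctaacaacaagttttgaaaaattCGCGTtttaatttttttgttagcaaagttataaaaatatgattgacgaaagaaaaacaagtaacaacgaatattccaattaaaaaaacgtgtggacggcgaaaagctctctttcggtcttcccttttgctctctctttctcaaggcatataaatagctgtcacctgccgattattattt
XTH18, chr4:14827212-14827511, minus strand: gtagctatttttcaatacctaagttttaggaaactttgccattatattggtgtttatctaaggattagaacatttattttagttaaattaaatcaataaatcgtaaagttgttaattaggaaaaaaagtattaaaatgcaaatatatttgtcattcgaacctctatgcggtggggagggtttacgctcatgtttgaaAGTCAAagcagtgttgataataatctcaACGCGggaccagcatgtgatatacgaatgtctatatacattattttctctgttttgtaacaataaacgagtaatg
XTH19, chr4:14830225-14830524, minus strand: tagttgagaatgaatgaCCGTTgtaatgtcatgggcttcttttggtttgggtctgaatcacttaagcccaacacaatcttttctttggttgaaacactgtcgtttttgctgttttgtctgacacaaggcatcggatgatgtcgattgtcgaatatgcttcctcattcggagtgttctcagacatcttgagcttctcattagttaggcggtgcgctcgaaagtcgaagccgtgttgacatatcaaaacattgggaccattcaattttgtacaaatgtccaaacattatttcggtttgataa
UGT74B1, chr1:8527088-8527387, minus strand: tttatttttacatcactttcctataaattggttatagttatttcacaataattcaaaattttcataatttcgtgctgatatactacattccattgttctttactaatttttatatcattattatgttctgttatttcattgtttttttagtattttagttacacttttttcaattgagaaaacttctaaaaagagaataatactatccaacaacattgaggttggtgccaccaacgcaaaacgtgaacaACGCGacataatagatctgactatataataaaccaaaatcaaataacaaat
The capitals in LOX4 and UGT74B1 are matches to the CGCG element, those in XTH18 are a W-box and a CGCG element, and those in XTH19 are the core of the mitosis-specific activator element. The neighbours XTH18 and XTH19 therefore shared no searched motif in this window.

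Both strands of all 61 orthologue promoters and of 27443 protein-coding promoters of the same length were searched. The CGCG element (CGCGT), bound by calmodulin-regulated CAMTA factors, was in 10 member promoters, or 16.4%, and in 7.89% of all. The drought-responsive element (ACCGAC), bound by CBF and DREB factors, was in 7, or 11.5%, and in 5.45% of all. The W-box (TTGACC or TTGACT), bound by WRKY factors, was in 34.4% and in 32.3% of all, and the G-box (CACGTG), bound by MYC2 and its kin, in 8.20% and in 7.09%. The mitosis-specific core (AACGG) was in 29.5% and in 23.4%, and the abscisic acid element (ACGTGGC or ACGTGTC) in 6.56% and in 7.01%. The evening element (AAATATCT) was in 4.92% and in 5.64%, and the GCC-box (GCCGCC) in 1.64% and in 2.26%. The E2F site, searched as TTCCCGCC or TTTCCCGC or TTTGGCGC, was in none of the 61 and in 1.33% of all. These matches describe the letters of A. thaliana promoters, while the genes were chosen in A. lyrata, and they say nothing of binding.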

How the data were processed

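Libraries were made with the Illumina TruSeq RNA kit, which as described does not keep strand, from 2 samples per condition and species. Per the paper's methods and the labels, reads were aligned by the authors with TopHat, to TAIR10 for A. thaliana. How reads that map to several places were counted is not given in the sources used here, so levels of near-identical genes are uncertain. The deposited gene tables hold raw read counts per gene and library, made by the authors, beside RPKM columns and the authors' own comparisons, which were not used. Gene positions and A. thaliana orthologues (AT_ortho) came from the deposited A. lyrata annotation, whose other columns (starts and ends) are coordinates; it names an orthologue for 22143 of 32793 genes. Symbols and promoters came from RefSeq (TAIR10.1), in which 27998 of the 32678 genes of the A. thaliana table were found, 99.8% with a start within 2000 bp.

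CPM were counts over library totals for the rule, with 1 added before ratios. A. thaliana levels were TMM-scaled. Counts were fitted by species with edgeR 4.0.16 (R 4.3.3), all 6 libraries in 1 quasi-likelihood fit with condition as the only term, after edgeR's filter on low counts (10 reads, 15 in total), with an adjusted p limit of 0.05. Intervals cover 95%. DESeq2 1.42.0, other scalings, no filter, a replicate block, 2-group fits and leaving out each library were alternatives. The genes named are the 25 members with an orthologue and the largest ratio of lowest recovery to highest mock, the 10 with the highest recovery CPM, members on a gene list, those whose orthologue passed in A. thaliana, 3 on each side of each threshold, 3 without an orthologue, and up to 2 leading other genes per list. The remaining members were named only to list a group. Members, lists, motifs and role groups were chosen with earlier results of these data known, and role groups after membership was seen. With 2 libraries against 2, no exact permutation test of 1 gene can reach 0.05. Counting error alone limits the lowest members: 9 reads was the lowest mock count and 52 the lowest recovery count.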

Additional observations from a re-analysis of the deposited data

Results flagged for a closer look

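For 16 named members the order of the libraries after recovery differed between the species. Both A. lyrata recovery libraries were above both mock libraries, as the selection required. Both A. thaliana recovery libraries were below both mock libraries, an order held by 25.9% of all A. thaliana genes tested. Some members were named because their orthologue passed in this same A. thaliana contrast, so the 16 cannot be set against that share. Named members with recovery above mock in both species were not counted here. Among all orthologues, 24 had both recovery libraries below both mock libraries and 16 had them above. The difference between species was not tested, since the A. lyrata values chose the genes. The A. thaliana log2 fold changes were -1.13 for DIC2, -1.07 for MSRB4, -0.79 for GSTF7, -0.78 for AT5G42530, -0.76 for ECS1 and -0.68 for OCT6. They were -0.66 for AT1G07135, -0.57 for AT4G19200, -0.46 for AT2G45820, -0.41 for GGT4 and -0.41 for AKN2. The smallest were -0.34 for AT1G09250, -0.20 for AT3G15650, -0.17 for SOT17, -0.15 for FLA13 and -0.15 for AT5G45280. Only DIC2, MSRB4, GSTF7 and AT5G42530 passed edgeR's adjusted p of 0.05.

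In heat, 4 named members had both A. lyrata libraries below both mock libraries and both A. thaliana libraries above them, a difference that was not tested either. The share of all genes with these orders was not computed. The A. thaliana log2 fold changes were 2.21 for GR-RBP3, 1.21 for FLA13, 0.77 for FUC95A and 0.73 for AT2G45820. In A. lyrata edgeR gave -0.52, -0.98, 0.13 and -0.32 for the same genes, so with TMM scaling FUC95A was not below mock there.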

How the results depend on the processing

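The rule chose 77 genes, 20 with a ratio of 2 in place of 1.5, and 76 to 123 when 1 library was left out, with the highest count without recovery replicate 2. The rule uses the lowest recovery and the highest mock library, so leaving out either kind can only loosen or keep its recovery conditions. Longer lists then follow in part from the rule and say nothing about the library left out. In A. lyrata, leaving out 1 library gave 39 to 46 members called in heat against mock, 70 to 77 in recovery against mock and 77 in recovery against heat. DESeq2 called 54 of the 77 in recovery against mock. Orthologues called in A. thaliana recovery against mock numbered 4, but 12 with no filter on low counts, 0 with only the 2 groups compared, and 0 to 28 with 1 library left out. The ranges for A. thaliana were 33 to 51 in heat against mock and 32 to 52 in recovery against heat. The A. thaliana log2 fold change of AT1G62480 was -0.28, 1.24 without mock replicate 1 and -1.02 without mock replicate 2. The cause of the differences in calls was not tested. Shares of all genes called under the same settings are not set beside these counts. The counts therefore describe the settings, and nothing is read from them about the members.

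The labels do not say whether replicate numbers pair the samples, and these libraries cannot settle it. Deviations of same-numbered libraries correlated from -0.009 to 0.218 in A. lyrata, with the highest value between heat and recovery. In A. thaliana they correlated from -0.089 to 0.079. With a replicate block, 2 orthologues were called in A. thaliana recovery against mock, and the A. lyrata counts were 44, 77 and 77. The A. thaliana block counts were 42 in heat against mock and 42 in recovery against heat. No share of all genes stands beside the block counts, so nothing is read from them about the members.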
